A study of Homo sapiens with 12 samples.

Results

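The nuclear genes of the respiratory chain and of the ATP synthase were followed across RNA-seq libraries of HEK293T cells, an established human line derived from embryonic kidney. They were taken by symbol from the protein-coding genes of the count table. Included were the symbols that begin with NDUF, UQCR or ATP5, those of the COX4, COX5, COX6, COX7 and COX8 families, and SDHA, SDHB, SDHC, SDHD and CYC1. This gave 100 genes of 60604, of which 46 belong to complex I, 4 to complex II, 10 to complex III, 19 to complex IV and 21 to complex V. A filter on low counts left 93 of them in the tests.

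The cells had received dCas9-VP160 with 6 guide RNAs for the promoter of CD34, dCas9-VP160 alone, or transfection reagents without plasmid. In dCas9-VP160, repeats of a viral activation domain are fused to a Cas9 that no longer cuts DNA. RNA was taken 48 h after transfection with 5.4 pmol of plasmid. The 12 libraries are 2 technical replicates of each of 2 experiments per condition, and the second experiment used another batch of cells. The labels call the cells without plasmid non-transfected in one place and treated with reagents in another, and the sources used here do not say what sets technical replicate 1 apart from 2. With 2 experiments per condition, p-values measure little more than the spread between these samples. All cells are 1 line. A plasmid lacking dCas9-VP160 was not among the conditions, so uptake of plasmid and the protein itself cannot be told apart.

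Complexes I to IV of the inner mitochondrial membrane pass electrons from NADH and succinate to oxygen, and complexes I, III and IV pump protons as they do so. Complex V, the ATP synthase, lets the protons flow back and makes ATP. Most subunits are encoded in the nucleus and imported, whereas a few of the core subunits of complexes I, III, IV and V are encoded in the mitochondrial DNA, and complex II is wholly nuclear.

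The libraries held 6750035 to 11932244 gene counts, of which the 100 genes took 1.35 to 1.53%. CD34, the target of the guides, had 94.6 to 107 CPM (counts per 1e6, normalised for library composition by TMM) in the libraries with guides, 0.7745 to 1.025 CPM with dCas9-VP160 alone and 1.53 to 2.48 CPM without plasmid. The 6 genes taken as typical of HEK293T cells (VIM, NEFL, NEFM, PAX2, LHX1 and CDH2) summed to 776 to 947 CPM over all libraries. The 5 fibroblast markers summed to 26.4 to 36.9 CPM and the 4 endothelial markers to at most 5.09 CPM. The 4 blood markers, 1 of them at 0 throughout, summed to at most 0.584 CPM. These sums do not show the part of each gene in them. All mitochondrially encoded genes together took 5.57 and 5.59% of counts in the replicate 1 libraries with guides and 7.44 and 7.50% in the replicate 2 libraries, against 5.14 to 5.63% with dCas9-VP160 alone and 8.31 to 8.78% without plasmid. The 2 replicates with guides thus differed in both experiments, and results on mitochondrially encoded genes with guides are given for each replicate number.

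Per kilobase of merged exons, the most abundant transcript was that of ATP5F1B, the catalytic beta subunit of the ATP synthase. Its level was 952 ± 5.52 CPM per kb with guides, 942 ± 26.9 with dCas9-VP160 alone and 887 ± 9.58 without plasmid (SD, n = 2 experiments). In CPM it read 2269, 2164, 2239 and 2157 in the libraries with guides, 2195, 2284, 2133 and 2150 with dCas9-VP160 alone, and 2002, 2151, 2097 and 2017 without plasmid. Here and below, 4 values of a condition stand for replicates 1 and 2 of experiment 1 and then replicates 1 and 2 of experiment 2. NDUFS5, an accessory subunit of complex I, followed with 289 ± 15.0, 306 ± 3.81 and 342 ± 59.5 CPM per kb in the same 3 conditions. COX8A, a small subunit of complex IV, had 279 ± 10.3, 283 ± 22.8 and 283 ± 5.31 CPM per kb. Without plasmid, NDUFA1 (286 ± 16.6 CPM per kb) lay within the SD of both NDUFS5 and COX8A, so that the order of these 3 genes was not resolved there. The order below ATP5F1B also depended on the length used. Per kilobase of the longest transcript, UQCRH ranked 2 with guides (312 CPM per kb), NDUFS5 ranked 3 and COX8A ranked 5.

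Tissue-specific isoforms were at or near 0. COX4I2, COX6A2 and COX7B2, known as isoforms of lung, of heart and skeletal muscle, and of testis, had 0 counts in all 12 libraries, as had the readthrough gene NDUFC2-KCTD14. Counting error alone would still allow 3 counts, which are 0.251 CPM in the deepest library and 0.444 CPM in the shallowest. COX7A1, the muscle isoform of COX7A, was at most 0.231 CPM in any library, and COX8C and ATP5MGL did not pass the filter either. The ubiquitous partners of these isoforms were abundant. COX4I1 averaged 301, 313 and 249.997 CPM with guides, with dCas9-VP160 alone and without plasmid, and COX6A1 averaged 215, 211 and 206 CPM.

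With dCas9-VP160 alone, the genes of the chain moved in both directions by small amounts. Of the 93 genes tested, 28 were higher and 30 lower than without plasmid (edgeR quasi-likelihood test with technical replicates summed, n = 2 experiments per group, adjusted p under 0.05, Benjamini-Hochberg over all genes). Over all 19662 genes tested, 26.6% were called higher and 24.6% lower, so that 28 and 30 of 93 stood close to the background. Counts by complex below are to be read against the same shares. The median log2 fold change was 0.02 over the 93 genes and 0.00 over all genes tested. A change of at least 1 on the log2 scale was reached by 4 genes, namely NDUFAF2, NDUFA7, NDUFA4L2 and COX6B2. In these bulk samples, a lower share of cells with a transcript and less of it per cell cannot be told apart. Both counts were lower, at 14 higher and 11 lower, when the experiment was left out of the model as a block. The calls over all genes dropped as well, from 5234 higher and 4836 lower to 3036 and 2528. The count of lower genes of the chain was 18 by DESeq2, where 2727 were lower over all genes. It was also 18 without the library of replicate 1 of experiment 1 with dCas9-VP160 alone, for which no count over all genes is given.

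**Figure D1:**
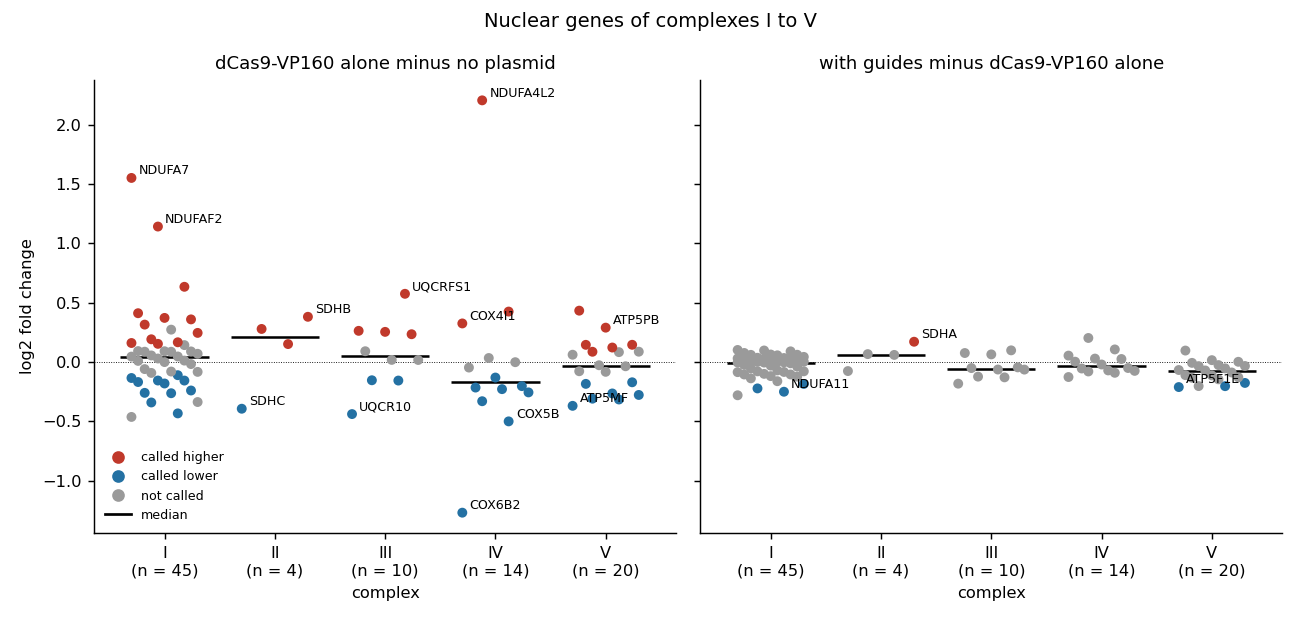
Log2 fold changes (y axis) of the 93 tested genes by complex, for dCas9-VP160 alone minus no plasmid (left) and for guides minus dCas9-VP160 alone (right). Each point is a gene, coloured by its call, and the bars are medians. On the left complexes I, III and V spread to both sides of 0 and complex IV lies mostly below it, and on the right 7 genes are called.

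In complex II, which oxidises succinate, the 4 subunits moved apart. SDHB, the iron-sulfur subunit, had 167, 160, 173 and 192 CPM with guides, 171, 184, 189 and 186 CPM with dCas9-VP160 alone, and 130.3, 134, 149 and 147 CPM without plasmid. Every library with dCas9-VP160 lay above every library without plasmid, and SDHB rose by 0.38 with dCas9-VP160 alone (SE 0.04, adjusted p = 1.86e-08). SDHA, the flavoprotein that holds the active site, rose by 0.28 (SE 0.03, adjusted p = 7.55e-08), and SDHD, a membrane anchor, by 0.15 (SE 0.04, adjusted p = 0.00623, but 0.0922 by DESeq2). SDHC, the other membrane anchor, had 56.4, 60.1, 60.96 and 62.9 CPM with guides, 53.2, 61.8, 54.1 and 61.7 CPM with dCas9-VP160 alone, and 64.6, 69.0, 87.1 and 83.3 CPM without plasmid. All 8 transfected libraries lay below the 4 without plasmid, where experiment 2 was above experiment 1, and SDHC fell by 0.39 with dCas9-VP160 alone (SE 0.06, adjusted p = 7.79e-06). The summed level of the complex was 975 ± 3.86 CPM with guides, 908 ± 2.75 with dCas9-VP160 alone and 775 ± 15.3 without plasmid (SD, n = 2). SDHD overlaps TIMM8B on the opposite strand and held 58.1% of the counts of that pair. SDHA made up most of these sums, and its 3 pseudogenes held 5.30% of the counts of the gene and its pseudogenes together.

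In complex III, which oxidises ubiquinol and reduces cytochrome c, 4 of 10 genes rose and 3 fell (26.6% and 24.6% of all genes tested). UQCRFS1, the Rieske iron-sulfur protein, had 204, 184, 230.2 and 218 CPM with guides, 211, 218, 213 and 231 CPM with dCas9-VP160 alone, and 132, 139, 165 and 155 CPM without plasmid. All 8 transfected libraries lay above the 4 without plasmid, and UQCRFS1 rose by 0.57 with dCas9-VP160 alone (SE 0.04, adjusted p = 1.97e-11). UQCRC2, a core protein, CYC1, the cytochrome c1, and UQCRH, the hinge protein, rose by 0.26, 0.25 and 0.23. UQCR10, a small membrane subunit, had 154, 175, 171 and 193 CPM with guides, 184, 208, 167 and 195 CPM with dCas9-VP160 alone, and 249, 226, 295 and 264 CPM without plasmid. Here all 8 transfected libraries lay below the 4 without plasmid, and UQCR10 fell by 0.44 (SE 0.05, adjusted p = 6.75e-07). UQCRQ and UQCR11, other small subunits, fell by 0.16 and 0.15 on the log2 scale.

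Complex IV, cytochrome c oxidase, had more falls than rises. Of its 11 ubiquitous nuclear subunits, 7 fell, 1 rose and 3 were not called, with a median log2 fold change of -0.20. Over all genes tested, 24.6% fell and 26.6% rose. COX5B, a zinc-binding subunit on the matrix side, had 102, 117, 105 and 124 CPM with guides, 120, 137, 109 and 124 CPM with dCas9-VP160 alone, and 175, 156, 196 and 171 CPM without plasmid. All 8 transfected libraries lay below the 4 others, and COX5B fell by 0.50 (SE 0.05, adjusted p = 2.93e-09). COX6B1, on the side of the intermembrane space, fell by 0.33 and NDUFA4, a subunit once assigned to complex I, by 0.26. COX7C, COX7A2, COX6C and COX5A fell by 0.23, 0.22, 0.20 and 0.13. COX4I1, one of the earliest subunits to be assembled, had 284, 295, 308 and 319 CPM with guides, 298, 326, 309 and 323 CPM with dCas9-VP160 alone, and 245, 232, 288 and 247 CPM without plasmid. It rose by 0.32 (SE 0.04, adjusted p = 6.38e-08), although the highest library without plasmid lay above the lowest with guides. COX7B, COX8A and COX6A1 were not called, at -0.05, -0.00 and 0.03. From the replicate 1 libraries alone 8 of the 11 subunits were called lower (20.5% of all genes tested), with a median of -0.36. From the replicate 2 libraries alone 3 were called lower (19.9% of all genes tested), with a median of -0.07.

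Among the isoforms of complex IV, COX7A2L, which promotes supercomplexes of complexes III and IV, rose by 0.42 (SE 0.05, adjusted p = 5.26e-08). It averaged 105 ± 8.30 CPM with guides, 101 ± 6.47 with dCas9-VP160 alone and 75.6 ± 8.75 without plasmid (SD, n = 2). NDUFA4L2, a paralog of NDUFA4 known to be induced by hypoxia, was scarce, with 25, 18, 15 and 12 counts with guides, 18, 12, 17 and 24 counts with dCas9-VP160 alone, and 8, 6, 0 and 2 counts without plasmid. It rose by 2.20 on the log2 scale (SE 0.42, adjusted p = 7.85e-05). This value is uncertain, since the gene had 157 counts in all libraries together. SHMT2, with 19798 counts on the opposite strand, overlaps 1.18% of its exon bases, and the libraries do not mark the strand. COX6B2, the testis isoform of COX6B, reached at most 1.62 CPM in any library. It fell by 1.27 (SE 0.37, adjusted p = 0.00553) and was not called by DESeq2 (adjusted p = 0.120) or without replicate 1 of experiment 1 with dCas9-VP160 alone (adjusted p = 0.0834).

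**Figure D2:**
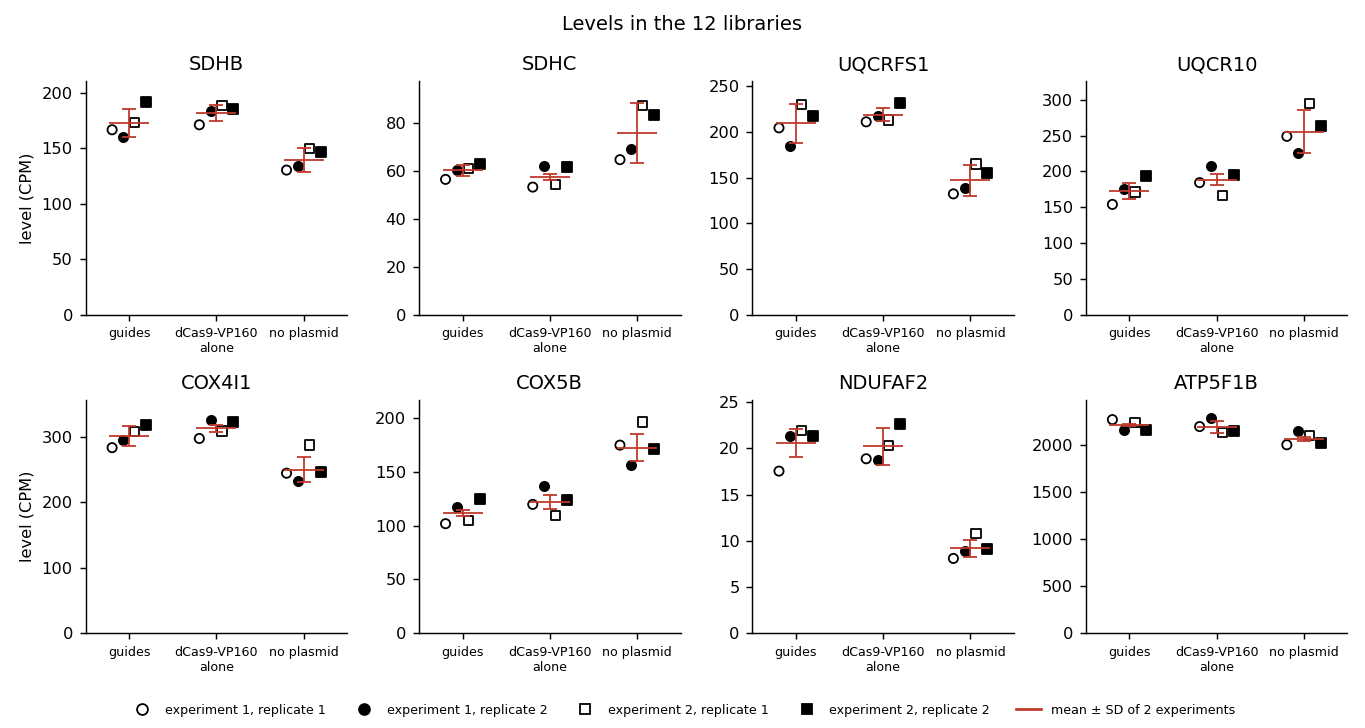
Levels of 8 genes in the 12 libraries (CPM, y axis from 0), with guides, with dCas9-VP160 alone and without plasmid from left to right. Symbols give the experiment and the technical replicate, and red bars the mean and SD of the 2 experiments. UQCRFS1 and NDUFAF2 lie higher and UQCR10 and COX5B lower in all transfected libraries than without plasmid.

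Because COX4I1 and COX5B, and UQCRFS1 and UQCR10, are pairs from 1 complex that moved in opposite directions, their promoters are shown from 250 bases before to 50 bases after the start, 5′ to 3′ (RefSeq, GRCh38.p14). Capitals mark exact matches to 1 of 3 motifs on either strand.
COX4I1, chr16:85799445-85799744, plus strand: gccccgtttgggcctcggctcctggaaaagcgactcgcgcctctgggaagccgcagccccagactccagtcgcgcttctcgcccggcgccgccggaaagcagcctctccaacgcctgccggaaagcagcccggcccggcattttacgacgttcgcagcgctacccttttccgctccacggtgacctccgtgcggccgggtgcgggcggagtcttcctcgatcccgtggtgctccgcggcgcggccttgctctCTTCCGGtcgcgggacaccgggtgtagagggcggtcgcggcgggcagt
COX5B, chr2:97645812-97646111, plus strand: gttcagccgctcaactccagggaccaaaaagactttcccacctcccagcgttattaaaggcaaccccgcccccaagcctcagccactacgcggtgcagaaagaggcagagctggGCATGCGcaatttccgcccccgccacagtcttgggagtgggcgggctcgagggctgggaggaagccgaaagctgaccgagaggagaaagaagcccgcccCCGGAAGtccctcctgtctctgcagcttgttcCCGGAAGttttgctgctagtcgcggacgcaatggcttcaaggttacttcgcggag
UQCRFS1, chr19:29213102-29213401, minus strand: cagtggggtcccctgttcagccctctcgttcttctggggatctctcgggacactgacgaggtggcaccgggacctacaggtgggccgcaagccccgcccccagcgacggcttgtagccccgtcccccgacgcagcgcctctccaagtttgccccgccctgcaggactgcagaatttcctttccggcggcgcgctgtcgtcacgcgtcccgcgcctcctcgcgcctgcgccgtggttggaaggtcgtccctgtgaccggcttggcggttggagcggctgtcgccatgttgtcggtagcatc
UQCR10, chr22:29767119-29767418, plus strand: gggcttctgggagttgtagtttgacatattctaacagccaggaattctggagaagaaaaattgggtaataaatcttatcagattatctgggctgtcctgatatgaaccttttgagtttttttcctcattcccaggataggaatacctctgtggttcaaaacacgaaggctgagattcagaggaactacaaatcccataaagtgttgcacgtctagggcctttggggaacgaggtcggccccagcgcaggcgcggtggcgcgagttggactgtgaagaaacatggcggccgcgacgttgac
The motifs were GCATGCG, the core of the site of NRF1, CCGGAAG, bound by ETS factors such as GABP, and AAGATGG, bound by YY1 (the ETS and YY1 motifs can share the letters AAG). NRF1, GABP and YY1 are known regulators of respiratory chain genes. COX4I1 held 1 ETS match, COX5B 2 ETS matches and 1 NRF1 match, and the pair of complex III none. Only exact matches were sought, so related sites with other letters went uncounted here and below.

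A promoter window was found for 78 of the 100 genes, and where several were listed the first was used. The NRF1 core was in 19.2% of the 78 windows, against 5.14% of 15843 windows of protein-coding genes. The ETS motif was in 26.9% against 14.2%, and the YY1 motif in 20.5% against 6.40%. Of the 23 genes with a window that rose with dCas9-VP160 alone, 6 held the NRF1 core, 7 the ETS motif and 6 the YY1 motif. Of the 22 that fell, 3, 7 and 3 held these motifs, and of the 29 that were not called, 6, 7 and 7. These shares are descriptions of the sequence and carry no test.

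Complex I, the NADH dehydrogenase, had 12 genes higher and 11 lower of 45 tested, close to the 26.6% and 24.6% of all genes tested. Of 8 assembly factors named NDUFAF, 4 rose, none fell and 4 were not called. NDUFAF2, which binds late assembly intermediates and leaves the finished complex, had 17.5, 21.3, 21.9 and 21.4 CPM with guides, 18.9, 18.7, 20.3 and 22.7 CPM with dCas9-VP160 alone, and 8.10, 8.94, 10.8 and 9.16 CPM without plasmid. All 8 transfected libraries lay above the 4 others, and NDUFAF2 rose by 1.14 with dCas9-VP160 alone (SE 0.10, adjusted p = 2.09e-10). NDUFAF4, which acts early in assembly, rose by 0.63 (SE 0.06), NDUFAF8 by 0.41 (SE 0.05) and its partner NDUFAF5, which modifies the core subunit NDUFS7, by 0.37 (SE 0.09). NDUFAF1, NDUFAF3, NDUFAF6 and NDUFAF7 were not called, with log2 fold changes of 0.14, -0.09, 0.01 and 0.03.

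Among the nuclear core subunits of complex I, NDUFS3 rose by 0.25 (SE 0.05, adjusted p = 6.47e-05) and NDUFS8 by 0.17. Other genes overlap 22.4% of the exon bases of NDUFS3, among them CELF1 on the opposite strand, with 31824 counts beside 14435. Of the 30 accessory subunits, 6 rose and 10 fell (26.6% and 24.6% of all genes tested). NDUFA1, a membrane subunit, had 142, 155, 159 and 171 CPM with guides, 164, 183, 151 and 156 CPM with dCas9-VP160 alone, and 225, 201, 248 and 214 CPM without plasmid. The transfected libraries were all lower, and NDUFA1 fell by 0.43 (SE 0.05, adjusted p = 1.77e-07). RNF113A on the opposite strand overlaps 44.5% of the exon bases of NDUFA1, with 3484 counts beside 20147. NDUFA2, NDUFB10 and NDUFA10 fell by 0.34, 0.26 and 0.26, and NDUFV3, a small subunit beside the NADH site, rose by 0.36 (SE 0.06). NDUFA7 rose by 1.55 (SE 0.35, adjusted p = 5.92e-04), but it had 131 counts in all libraries together and overlaps RPS28, which had 13911, on the opposite strand. Other genes, RPS28 among them, overlap 33.5% of the exon bases of NDUFA7. Reads in the stretch shared with RPS28 cannot be assigned by strand, and the value of NDUFA7 is uncertain. NDUFA13 had 489 counts beside 592 of YJEFN3, which it overlaps on the same strand, and NDUFV2, a core subunit, had 172 counts and its pseudogene 34.1% of their joint counts.

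In complex V, 6 of 20 genes rose and 7 fell (26.6% and 24.6% of all genes tested). ATP5PB, the b subunit of the peripheral stalk, had 257, 251, 276 and 276 CPM with guides, 250.2, 273, 275 and 271 CPM with dCas9-VP160 alone, and 206, 211, 243 and 218 CPM without plasmid. All 8 transfected libraries lay above the 4 without plasmid, and ATP5PB rose by 0.29 (SE 0.04, adjusted p = 3.60e-07). ATP5F1A and ATP5F1B, the alpha and beta subunits of the catalytic head, rose by 0.14 and 0.09, and ATP5IF1, the inhibitor of its ATP hydrolysis, by 0.15. ATP5F1B was not called by DESeq2 (adjusted p = 0.109) or without the filter on low counts (adjusted p = 0.0620), and its call was lost without 1 library in 4 of 12 cases (adjusted p up to 0.164), namely replicate 1 of experiment 1 and replicate 2 of experiment 2 without plasmid, replicate 2 of experiment 2 with dCas9-VP160 alone, and replicate 1 of experiment 1 with guides. ATP5IF1 was not called by DESeq2 (adjusted p = 0.0575) or without replicate 2 of experiment 2 without plasmid (adjusted p = 0.137). Its log2 fold change was 0.025 from the replicate 1 libraries alone (adjusted p = 0.748) and 0.053 in experiment 2 alone. On the falling side were ATP5MF, a membrane subunit (-0.37, SE 0.06), ATP5MC1 and ATP5MC2, which both encode the c subunit of the rotor ring (-0.32, SE 0.05 and -0.31, SE 0.04), and ATP5F1D of the central stalk (-0.28, SE 0.06). ATP5MC3, the remaining gene of the c subunit, was not called at -0.04. The readthrough gene ATP5MF-PTCD1 rose by 0.43 (SE 0.18, adjusted p = 0.0446), shares 93.8% of its exons with neighbours, and stood at -0.0093 in experiment 1 alone.

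**Figure D3:**
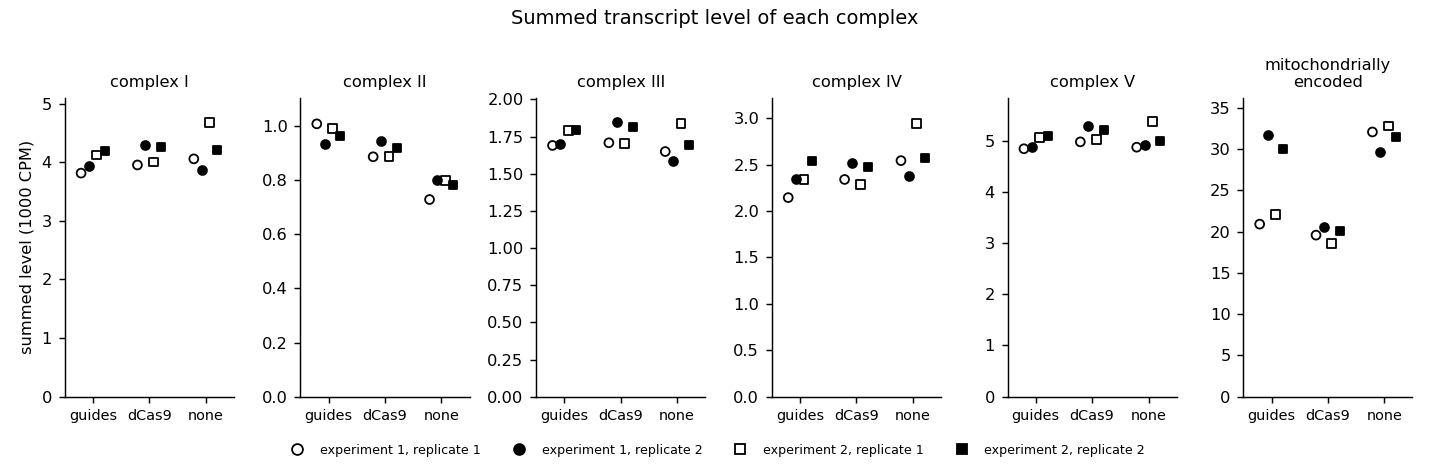
Summed level of the nuclear genes of each complex and of the 13 mitochondrially encoded subunits in the 12 libraries (1000 CPM, y axes from 0 and of different height), with guides, with dCas9-VP160 alone (dCas9) and without plasmid (none) from left to right. Complex II is higher in all transfected libraries, whereas the mitochondrially encoded sum is lower in all but the replicate 2 libraries with guides.

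The subunits encoded in the mitochondrial DNA went one way. Of 13, none was higher and 12 were lower with dCas9-VP160 alone than without plasmid, with a median log2 fold change of -0.74. Over all genes tested, 26.6% were called higher and 24.6% lower. MT-CYB, cytochrome b of complex III, fell by 0.93 (SE 0.03), and MT-CO1, the catalytic subunit of complex IV, by 0.34 (SE 0.03). Their summed level was 20907, 31742, 22031 and 30034 CPM with guides, 19577, 20523, 18608 and 20120 CPM with dCas9-VP160 alone, and 32075, 29697, 32806 and 31436 CPM without plasmid. The nuclear genes of the chain amounted to 64.6, 43.5, 64.9 and 48.6% of this sum with guides, to 70.8, 72.5, 74.7 and 72.9% with dCas9-VP160 alone, and to 43.2, 45.6, 47.6 and 45.3% without plasmid. The summed level of the 100 nuclear genes was 14044 ± 515 CPM with guides, 14306 ± 49.2 with dCas9-VP160 alone and 14194 ± 852 without plasmid (SD, n = 2), so that these differences lay within the SD of the cells without plasmid.

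Related genes outside the 100 were read from lists that were chosen with earlier results of these data known. Of 44 further assembly factors of complexes I to V, 20 rose and 7 fell with dCas9-VP160 alone, to be read, like the counts of the lists that follow, against the 26.6% and 24.6% of all genes tested. ECSIT, a factor of complex I, rose by 0.69 (SE 0.08), and PET100, a factor of complex IV, fell by 0.74 on the log2 scale (SE 0.11). Of 25 genes of coenzyme Q, cytochrome c and the ADP and phosphate carriers, 13 rose and 4 fell, with CYCS, the mobile electron carrier cytochrome c, at 370, 343 and 211 CPM with guides, with dCas9-VP160 alone and without plasmid (log2 fold change 0.70, SE 0.04, for dCas9-VP160 alone). COQ10A, a coenzyme Q binding protein, fell by 0.54. Of 17 regulators of the chain, 7 rose and 1 fell. PPARGC1A, the coactivator PGC-1 alpha, averaged 15.0, 15.1 and 7.49 CPM (log2 fold change 1.01, SE 0.11). TFAM, which packages mitochondrial DNA and takes part in its transcription, rose by 0.45 (SE 0.05), and SP1 fell by 0.18. Of 19 genes of the tricarboxylic acid cycle and pyruvate dehydrogenase, 7 rose and 5 fell, with IDH3A, a subunit of the NAD-dependent isocitrate dehydrogenase, at 0.77 (SE 0.04) and IDH2, the NADP-dependent enzyme, at -0.42 (SE 0.05).

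Adding the guides to dCas9-VP160 moved few genes of the chain. Of the 93 tested, 1 was higher and 6 were lower with guides than with dCas9-VP160 alone, where 4.16% of all genes tested were called higher and 3.41% lower. SDHA had 670.1, 604, 620.0 and 576 CPM with guides, 552, 595, 519 and 539 CPM with dCas9-VP160 alone, and 438, 496, 445 and 436 CPM without plasmid, and rose by 0.17 on the log2 scale over dCas9-VP160 alone (SE 0.03, adjusted p = 0.00140). The lowest library with guides lay below the highest with dCas9-VP160 alone, and from the replicate 2 libraries alone the log2 fold change was 0.059 (adjusted p = 0.620). The lower genes were NDUFA11, NDUFA3 and NDUFAB1, accessory subunits of complex I, at -0.25, -0.22 and -0.18, and ATP5F1E, ATP5PD and ATP5MC2, of the central stalk, the peripheral stalk and the rotor ring, at -0.21, -0.20 and -0.18. ATP5F1E had 106, 127, 120 and 141 CPM with guides, 135, 145, 135 and 153 CPM with dCas9-VP160 alone, and 135, 123, 157 and 138 CPM without plasmid (adjusted p = 0.00398), and the values with and without guides overlapped. The fall of NDUFA11 had an adjusted p of 0.00948. No gene of complexes III or IV was called by edgeR, and at an unadjusted p under 0.05 there were 1 higher and 2 lower genes in complex III and 2 lower genes in complex IV, where 10.8% and 10.3% of all genes tested passed.

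These calls moved with the processing. Without the experiment as a block, 0 genes of the chain were called in either direction, against 1 higher and 0 lower over all genes. DESeq2 called 0 lower, against 83 over all genes. With library totals in place of TMM, 16 genes of the chain were lower. Without replicate 1 of experiment 1 with guides, SDHA had an adjusted p of 0.0533, and the count of lower genes ranged from 2 to 11 when 1 library was left out. Counts over all genes are not given for library totals or left-out libraries, so these counts are not read as particular to the chain. Of the 13 mitochondrially encoded subunits, 11 were higher with guides (4.16% of all genes tested), with a median log2 fold change of 0.32. From the replicate 1 libraries alone none was called and the median was 0.05, whereas from the replicate 2 libraries alone 12 were called at a median of 0.53. Shares of all genes tested are not given for the fits by replicate number.

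Against cells without plasmid, the cells with guides had 26 genes of the chain higher and 37 lower of 93, where 26.7% and 25.9% of all genes tested were called. This comparison and that of dCas9-VP160 alone share the libraries without plasmid, so their values are only set side by side. NDUFAF2 had a log2 fold change of 1.17 with guides and 1.14 with dCas9-VP160 alone, UQCRFS1 0.51 and 0.57, SDHB 0.30 and 0.38, and SDHA 0.45 and 0.28. UQCR10 stood at -0.56 and -0.44, COX5B at -0.63 and -0.50, NDUFA2 at -0.50 and -0.34, and ATP5MF at -0.50 and -0.37. NDUFAF3 stood at -0.21 (SE 0.05, adjusted p = 0.00120) and -0.09. It was called lower with guides and not with dCas9-VP160 alone, but guides against dCas9-VP160 alone was not called (-0.12, adjusted p = 0.181). The call with guides was lost without the experiment as a block (adjusted p = 0.241) and from replicate 2 libraries alone (-0.094, adjusted p = 0.276). In complex V, 4 genes were higher and 11 lower with guides, and in the subunits of complex IV again 1 higher and 7 lower.

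The technical replicates were compared within each condition and experiment. Over the 6 pairs, 0 of 92 genes of the chain were called between replicate 2 and replicate 1 by edgeR, as by DESeq2, where 0% of 17218 genes tested were called higher and 0.00581% lower. At an unadjusted p under 0.05 there was 1 gene, ATP5S (now DMAC2L), with a log2 difference of 0.18 (SE 0.07), where 2.31% of all genes tested passed as higher and 2.14% as lower. Within the conditions, the medians differed. The median log2 difference of replicate 2 minus replicate 1 over the 92 genes was 0.06 and 0.04 in experiments 1 and 2 with guides, 0.11 and 0.11 with dCas9-VP160 alone, and -0.07 and -0.16 without plasmid, whereas the median of all genes tested lay within 0.01 of 0 in every pair. Of the 92, 59 and 60 were higher in replicate 2 with guides, 80 and 83 with dCas9-VP160 alone, and 29 and 10 without plasmid.

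**Figure D4:**
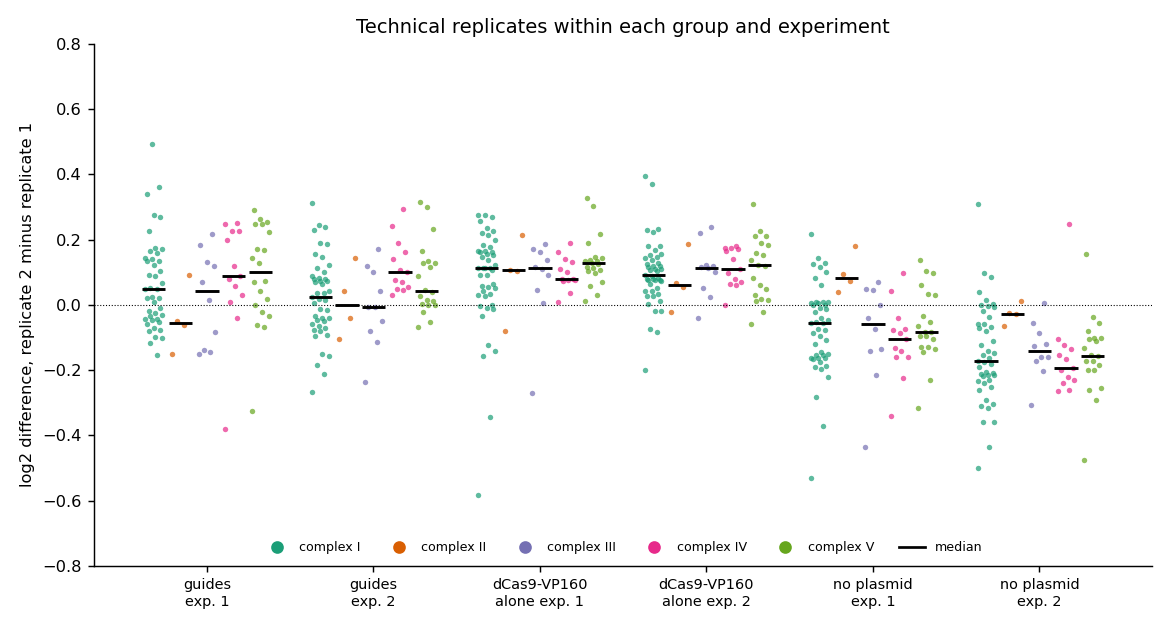
Log2 difference of replicate 2 minus replicate 1 (y axis) for 92 genes in the 6 pairs of technical replicates, by complex, with medians as bars. The axis ends at 0.8 and 2 points lie beyond it. The medians of complexes I, III, IV and V are above 0 in both pairs with dCas9-VP160 alone and below 0 in both pairs without plasmid.

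The counts differed between the complexes. In complex I, 27 and 26 of 45 genes were higher in replicate 2 with guides, 35 and 40 with dCas9-VP160 alone, and 14 and 6 without plasmid. In complex III, 6 and 4 of 10 were higher with guides, 9 and 9 with dCas9-VP160 alone, and 3 and 1 without plasmid. In complex IV, all 13 genes were higher in replicate 2 in both pairs with dCas9-VP160 alone, 11 and 13 with guides, and 2 and 1 without plasmid. In complex V, 14 and 15 of 20 were higher with guides, 20 and 18 with dCas9-VP160 alone, and 6 and 1 without plasmid. COX5B differed by 0.20 and 0.24 between the replicates with guides, by 0.19 and 0.18 with dCas9-VP160 alone, and by -0.16 and -0.20 without plasmid. In complex II, 1 and 2 of 4 genes were higher with guides, 3 and 3 with dCas9-VP160 alone, and 4 and 1 without plasmid. Replicate 2 was the deeper library in experiment 1 with guides, in experiment 2 with dCas9-VP160 alone and in both experiments without plasmid, and the part of depth in these differences was not tested.

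The response to dCas9-VP160 alone was also read for each replicate number. From the replicate 1 libraries alone, 19 genes of the chain were higher and 38 lower of 92 (23.8% and 20.5% of all genes tested), with a median log2 fold change of -0.08. From the replicate 2 libraries alone, 34 were higher and 12 lower of 93 (22.2% and 19.9% of all genes tested), with a median of 0.09. The difference between these responses was read from the interaction of condition and replicate number, which restates the differences between replicates above and is no independent evidence of them. It was above 0 in 87 of 92 genes, with a median of 0.24, against a median of 0.00 over all genes tested. It was called higher in 18 genes and lower in 0 of 92, where 0.529% and 0.296% of all genes tested were called. At an unadjusted p under 0.05 the counts were 51 higher and 1 lower of 92, where 5.66% and 5.77% of all genes tested passed. The 18 genes were 7 of complex I, 2 of complex III, 4 of complex IV and 5 of complex V.

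Examples are given here that were chosen after their values were seen. Among the 18, COX5B had log2 fold changes of -0.68 from replicate 1 libraries and -0.34 from replicate 2 libraries, a difference of 0.36 (SE 0.08, adjusted p = 0.00973). UQCR10 had -0.61 and -0.28, a difference of 0.35 (SE 0.07, adjusted p = 0.00900). Both were called lower in either set. UQCRB, a subunit of complex III that was not called with the replicates summed, was lower from replicate 1 libraries (-0.17) and higher from replicate 2 libraries (0.18), a difference of 0.37 (SE 0.09, adjusted p = 0.0191). NDUFS6, an accessory subunit of complex I, was at 0.01 and 0.35, a difference of 0.36 (SE 0.08, adjusted p = 0.0172), and its rise was called only from replicate 2 libraries. Outside the 18, NDUFAF2 (1.07 and 1.21), UQCRFS1 (0.53 and 0.61) and SDHB (0.37 and 0.39) were called higher from either set, and their differences were not called (adjusted p = 0.873, 0.715 and 0.937). The 18 calls were fragile. By DESeq2, without the filter on low counts, and without either pair with dCas9-VP160 alone or the pair of experiment 2 without plasmid, 0 genes were called, although the medians by complex kept to 0.22, 0.02, 0.19, 0.24 and 0.24 for complexes I to V by DESeq2.

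**Figure D5:**
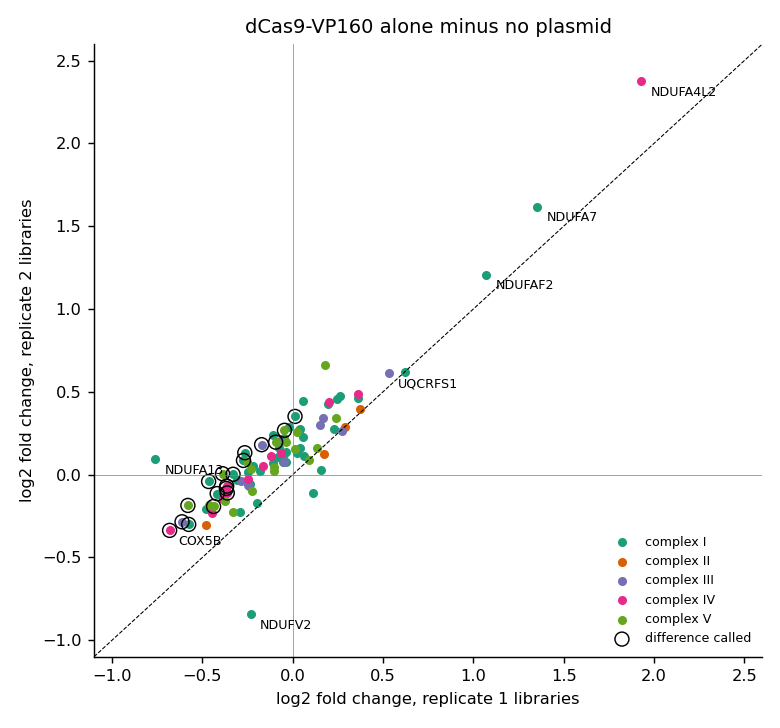
Log2 fold changes for dCas9-VP160 alone minus no plasmid from the replicate 1 libraries (x axis) and the replicate 2 libraries (y axis), 1 point per gene, coloured by complex. The dashed line marks equal values and circles mark the 18 genes whose difference was called. Most points lie above the line.

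The length of the merged exons over all transcripts of a gene was set beside these values, since many of the genes are short. This length can exceed that of every transcript, as for SDHA, with 8383 bases of merged exons and a longest transcript of 3001. Under 1000 bases, the 9 genes of the chain had a median response to dCas9-VP160 alone of -0.31 from replicate 1 and 0.00 from replicate 2 libraries, against -0.04 and 0.02 for all genes tested in that class. From 1000 to under 2000 bases, the medians were -0.07 and 0.13 for 25 genes of the chain, against -0.01 and 0.07 for all genes. From 2000 to under 4000 bases, they were -0.09 and 0.08 for 35 genes, against 0.04 and 0.07. The 15 genes of 4000 to under 8000 bases stood at -0.04 and 0.20, against 0.02 and -0.00. In the 9 genes of 8000 bases or more the medians hardly differed, at 0.02 and 0.03, against -0.05 and -0.12 for all genes. The part of merged exon length in the result was not tested beyond these medians.

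The response was also read within each experiment. Each of these fits rests on a single experiment per condition. Their p-values therefore measure the spread between 2 technical replicates, and not that between experiments. From experiment 1 alone, 28 genes were higher and 13 lower of 92 (21.6% and 19.3% of all genes tested). From experiment 2 alone, 20 were higher and 32 lower of 93 (22.4% and 19.7% of all genes tested). The difference of the responses, experiment 2 minus experiment 1, was above 0 in 13 of 92 genes, with a median of -0.14, and 0 were called by edgeR in either direction, where 0.00581% of all genes tested were called in each direction. At an unadjusted p under 0.05, 2 genes were higher and 20 lower, where 2.25% and 2.96% of all genes tested passed. Complex II had the same calls in 3 of its 4 subunits in both experiments, and SDHD was called in experiment 2 alone (adjusted p = 0.190 in experiment 1).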

How the data were processed

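Per the labels, RNA of the 12 samples was made into libraries with SMART-Seq HT and Nextera XT, which do not mark the strand. The deposited values are whole-number counts per gene, made by the authors. Trim Galore 0.3.7, STAR 2.6.0c, Picard 2.17.1, DESeq2 1.16.1 and the build hg38 are named in the submitters' processing notes, without their roles. Totals were 6750035 to 11932244 gene counts per library, and 92 spike-in features were kept out of tests and totals. Gene types, exons and overlaps came from GENCODE v29. The overlaps named for single genes are not a full list.

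The members, gene lists and comparisons were chosen with earlier results of these data known. Technical replicates were summed to 6 libraries, and all 3 groups were fitted in 1 edgeR 4.0.16 quasi-likelihood model (R 4.3.3; filterByExpr, TMM, robust) with the experiment as a block, since the series' design text gives it as a batch of cells. Differences of the groups between experiments correlated at 0.41 to 0.43 across genes. P-values were adjusted by Benjamini-Hochberg over 19662 genes and called under 0.05, and SEs are the log2 fold change divided by the root of F. Replicate numbers and interactions were tested on all 12 libraries over 17218 genes. The spread in these fits, and in the fits of each experiment alone, is that between technical replicates. The scripts were tested on simulated data. Alternatives were DESeq2 1.42.0, no block, library totals, no filter, each experiment or replicate number alone, and leaving out each library. Named genes were the called genes with the largest change in each direction per comparison and complex, those changed by at least 1 on the log2 scale, and a set of subunits and isoforms. Other genes named were chosen after their values were seen. A gene that the rule names is not reported here.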

Additional observations from a re-analysis of the deposited data

Results flagged for a closer look

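Among 132 groups of 4 libraries examined, 8 held a library far from the other 3, by Dixon's criterion on the gap to the nearest library as a share of the group's range. Chance gives about 1 in 20 such groups. With guides, replicate 1 of experiment 1 was the odd library in all 5 cases. It was low for NDUFAF2 (17.5 CPM, others 21.3 to 21.9, gap 0.861 of the range), NDUFAF5 (18.6 CPM, others 21.7 to 21.9, gap 0.919) and NDUFC1 (57.6 CPM, others 71.5 to 74.2, gap 0.839). It was high for NDUFA7 (2.49 CPM, others 0.882 to 1.14, gap 0.839) and ATP5MF-PTCD1 (7.81 CPM, others 5.84 to 6.17, gap 0.832). With dCas9-VP160 alone, NDUFS3 was low in replicate 1 of experiment 1 (131 CPM, others 144 to 146, gap 0.884). Without plasmid, SDHA was high in replicate 2 of experiment 1 (496 CPM, others 436 to 445, gap 0.851) and COX6A1 in replicate 1 of experiment 2 (236 CPM, others 197 to 203, gap 0.853).

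For 18 genes the response to dCas9-VP160 alone differed between replicate numbers by the edgeR interaction test. The differences, replicate 2 minus replicate 1 libraries on the log2 scale, were as follows. In complex I they were 0.29 for NDUFA1, 0.45 for NDUFA3, 0.37 for NDUFAF3, 0.32 for NDUFB10, 0.41 for NDUFB6, 0.35 for NDUFS5 and 0.36 for NDUFS6. In complex III they were 0.35 for UQCR10 and 0.37 for UQCRB. In complex IV they were 0.36 for COX5B, 0.31 for COX6C, 0.30 for COX7A2 and 0.27 for COX7C. In complex V they were 0.31 for ATP5F1E, 0.26 for ATP5MC2, 0.33 for ATP5MD, 0.42 for ATP5MF and 0.41 for ATP5PD.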

How the results depend on the processing

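Counts of called genes of the chain are given here where they changed by more than 1.5 times. For dCas9-VP160 alone against no plasmid, 14 were higher and 11 lower with no replicate block (the experiment as block), 18 lower by DESeq2, 13 lower in experiment 1 alone and 12 lower from replicate 2 libraries alone. For guides against dCas9-VP160 alone, 0 were higher and 0 lower with no block, 0 lower by DESeq2, 16 lower with library totals, 0 higher in experiment 1 alone, 0 in either direction in experiment 2 alone, 2 lower from replicate 1 libraries, and 0 higher and 1 lower from replicate 2 libraries. For guides against no plasmid, 14 were higher and 15 lower with no block, 23 lower in experiment 1 alone and 18 lower from replicate 2 libraries. The cause was not tested. Counts over all genes follow below for DESeq2 and for no block. For library totals and left-out libraries they are not given, so those counts are not read as particular to the chain.

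Leaving out 1 library gave 20 to 33 higher and 18 to 33 lower genes for dCas9-VP160 alone against no plasmid, 0 to 1 higher and 2 to 11 lower for guides against dCas9-VP160 alone, and 22 to 35 higher and 30 to 38 lower for guides against no plasmid. For guides against dCas9-VP160 alone, 11 were lower without replicate 1 of experiment 2 without plasmid or with dCas9-VP160 alone. There were 2 lower without replicate 2 of experiment 2 without plasmid or replicate 1 of experiment 1 with guides. There were 3 lower without replicate 2 of either experiment with dCas9-VP160 alone or replicate 1 of experiment 2 with guides. The difference between replicate numbers was called higher in 0 genes without the filter and by DESeq2, and in 0 to 21 genes and lower in 0 to 1 without 1 pair. The DESeq2 run and the runs without 1 pair were chosen after seeing the data. The difference between experiments was called lower in 1 gene without the filter. ATP5MF-PTCD1 reversed for dCas9-VP160 alone against no plasmid, at -0.0093 in experiment 1 alone.

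Over all genes, DESeq2 called 3406 higher and 2727 lower for dCas9-VP160 alone against no plasmid, 276 and 83 for guides against dCas9-VP160 alone, and 3718 and 2929 for guides against no plasmid. With no block these were 3036 and 2528, 1 and 0, and 3229 and 2869. Replicate numbers did not pair the samples (correlations of -0.0858 to 0.0835). With them as a further block on 12 libraries, the counts were 27 higher and 27 lower for dCas9-VP160 alone against no plasmid, 1 and 6 for guides against dCas9-VP160 alone, and 25 and 35 for guides against no plasmid. Over all alternatives, 2360 values of single named genes kept their direction and side of the threshold, 112 lost a call and 17 gained one. Medians by complex for dCas9-VP160 alone kept their sign under DESeq2 size factors and library totals. Over all alternatives, 108 medians were classed as moved and 417 as the same. The median over all genes of the chain changed its sign between the replicate 1 and replicate 2 libraries, as given above. Depth limits NDUFA7, NDUFA4L2 and COX6B2, which rest on few counts.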
